A study of Mus musculus with 4 samples.

Results

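The EGF family of growth factors and receptors was followed in macrophages sorted from mouse prostate tumours with and without BMP4 overexpression. Its 10 members were chosen by name from 39179 gene identifiers: the 6 ligand genes Areg, Ereg, Hbegf, Tgfa, Btc and Nrg1 and the 4 receptor genes Egfr, Erbb2, Erbb3 and Erbb4. All 10 were found in the gene counts. The MycCaP-BMP4 group came from tumours of the BMP4-overexpressing line, BMP4 being a secreted signalling protein that drives bone formation, and the MycCaP group from tumours of MycCaP cells, a mouse prostate cancer line of the FVB strain that carries a human MYC transgene. Both lines were grown under the skin of FVB mice. The labels say for both groups that cells of the dissociated tumours that carried CD45, CD11b and F4/80 and lacked GR1 were sorted as macrophages. Each group had 2 libraries, named replicates 1 and 2 and given in that order below. No source used here says how BMP4 was expressed, whether the line is 1 clone, how old the mice were or whether samples came from separate mice. The p-values therefore reflect the spread of these libraries alone, and that spread may be technical.

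EGF family ligands are made as membrane-anchored precursors and are released by metalloproteases of the ADAM family. Areg (amphiregulin) and Tgfa bind EGFR, whereas Btc (betacellulin), Ereg (epiregulin) and Hbegf (heparin-binding EGF-like growth factor) bind both EGFR and ERBB4, and Nrg1 (neuregulin) binds ERBB3 and ERBB4. Bound receptors pair with each other, and ERBB2, which has no known ligand of its own, is the favoured partner. The receptor pairs signal through the RAS, ERK and PI3K pathways. Macrophages in tumours are known as a source of such ligands for tumour cells, and the receptors are best known from epithelial cells.

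Areg and Btc are neighbours in a cluster of EGF ligand genes on chromosome 5 and stood on opposite sides of the comparison, and Tgfa and Erbb2 had the highest fold changes of a ligand and a receptor. The 250 bases upstream of these 4 genes are therefore shown, 5′ to 3′ on the strand of the gene, from RefSeq on GRCm38.p6. They lie at chr5:91139349-91139598 (plus strand), chr5:91402995-91403244 (minus strand), chr6:86194972-86195221 (plus strand) and chr11:98412234-98412483 (plus strand). Capitals mark exact matches to any of 4 motifs.
Areg: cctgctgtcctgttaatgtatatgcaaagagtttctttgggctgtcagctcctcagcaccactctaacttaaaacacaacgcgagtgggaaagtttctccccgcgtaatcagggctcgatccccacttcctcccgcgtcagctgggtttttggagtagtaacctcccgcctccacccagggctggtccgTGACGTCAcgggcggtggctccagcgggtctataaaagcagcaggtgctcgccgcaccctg
Btc: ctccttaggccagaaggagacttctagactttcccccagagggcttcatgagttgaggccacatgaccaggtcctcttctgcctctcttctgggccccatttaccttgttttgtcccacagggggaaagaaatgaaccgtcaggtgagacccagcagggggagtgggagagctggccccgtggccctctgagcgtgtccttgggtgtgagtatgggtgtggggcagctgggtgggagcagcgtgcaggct
Tgfa: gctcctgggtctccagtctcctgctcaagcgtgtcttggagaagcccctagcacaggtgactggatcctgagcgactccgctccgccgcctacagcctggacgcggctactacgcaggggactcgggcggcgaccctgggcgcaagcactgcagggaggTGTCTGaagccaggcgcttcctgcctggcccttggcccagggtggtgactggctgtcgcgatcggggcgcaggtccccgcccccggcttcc
Erbb2: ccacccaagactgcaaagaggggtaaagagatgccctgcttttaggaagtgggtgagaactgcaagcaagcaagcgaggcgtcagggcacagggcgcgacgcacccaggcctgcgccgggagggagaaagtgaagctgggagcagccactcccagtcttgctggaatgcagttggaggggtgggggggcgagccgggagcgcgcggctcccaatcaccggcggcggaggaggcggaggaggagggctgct
The motifs were searched on both strands. They were the cAMP response element TGACGTCA, the AP-1 site TGANTCA, the SMAD box CAGACA and the GC-rich BMP SMAD element GGCGCC, and no match of 1 motif overlapped a match of another in these sequences. The Areg sequence held 1 cAMP response element, whose first base is at position -61 from the annotated start, and 1.55% of 32851 RefSeq promoter windows of this length held that motif. The Tgfa sequence held 1 SMAD box, on the reverse strand with its leftmost base at -91, a motif that 17.1% of the windows held. None of the 4 motifs was found in the Btc and Erbb2 windows, nor in those of Egfr and Erbb4. AP-1 sites were in 6.75% of all windows and the GC-rich element in 9.59%. A match is a run of letters and not a measured binding site. Ereg, Hbegf, Nrg1 and Erbb3 had no entry in the promoter table. Guanine and cytosine made up 57.2% of the Areg window, 59.6% of the Btc window, 69.2% of the Tgfa window and 66.0% of the Erbb2 window.

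The libraries held 24313328 and 23058263 counts in genes in the MycCaP-BMP4 group and 24967143 and 24385036 in the MycCaP group. The floor of detection, 3 counts, was worth 0.120 to 0.130 CPM (counts scaled to a common library total), which covers counting error only. Bmp4 had 512 and 182 CPM in MycCaP-BMP4 libraries against 0.175 and 0.0422 CPM in MycCaP libraries. All 15 genes that mark macrophages in general were detected. Their median level, relative to the MycCaP mean, was 19.5% and 74.2% in MycCaP-BMP4 libraries and 107% and 92.97% in MycCaP libraries. MycCaP-BMP4 replicate 1 therefore stood apart from the other 3 libraries. In such bulk samples fewer cells of a type and less RNA per cell cannot be told apart. The titles name F4/80 for the MycCaP-BMP4 samples alone, although all 4 samples carry 1 cell type label, and whether both groups passed 1 gate was not settled. Mitochondrial genes took 3.28% and 2.85% of gene counts in MycCaP-BMP4 libraries against 0.671% and 1.63% in MycCaP libraries. Reads that HTSeq found to overlap no gene, apart from ambiguous and multi-mapped reads, made up 6.01% and 6.03% against 3.98% and 3.37%. Both shares thus separated the groups, and their part in the results below was not tested.

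In these libraries the makeup of the ligand messages differed between the groups. Of 6 ligands, Areg was lower and Hbegf, Btc and Tgfa were higher in each MycCaP-BMP4 library than in either MycCaP library, while Ereg and Nrg1 overlapped. Of the receptors, Erbb2, Erbb3 and Egfr lay higher in both, with Egfr apart by a narrow margin, and Erbb4 had no count in any library. No member passed edgeR's quasi-likelihood test with Benjamini-Hochberg adjustment over 14075 genes at the 0.05 threshold, and neither did any other gene (0% of the genes tested in each direction). Of the 10 members, 8 had enough counts to be tested. Of these 8, 6 lay higher and 1 lower in both MycCaP-BMP4 libraries, beside 28.9% of all tested genes that lay higher and 29.7% that lay lower. At an unadjusted p under 0.05 there were 5 members higher and 1 lower, beside 12.3% and 6.76% of all tested genes. DESeq2 called 4 of the 8, all higher (Btc, Erbb2, Hbegf and Tgfa), beside 6.83% of all tested genes called higher and 3.01% lower, and limma-voom called none of the 14075 (0%), with 6 members at an unadjusted p under 0.05 beside 19.5% of all genes. Tgfa passed the filter on low counts only through the MycCaP-BMP4 libraries, so its place among the higher genes was partly set by the filter. Leaving out a MycCaP-BMP4 library changed the size of the fold changes. Without MycCaP-BMP4 replicate 1 the log2 fold change was 1.38 for Hbegf, 1.46 for Btc and 0.90 for Erbb3. Without MycCaP-BMP4 replicate 2 the same genes had 1.15, 2.45 and 1.66. The values of Areg, Tgfa, Nrg1 and Erbb2 in these fits are given with each gene below. The spread in both fits was estimated on the 2 MycCaP libraries, and the lone MycCaP-BMP4 library was assumed to vary like that pair.

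**Figure D1:**
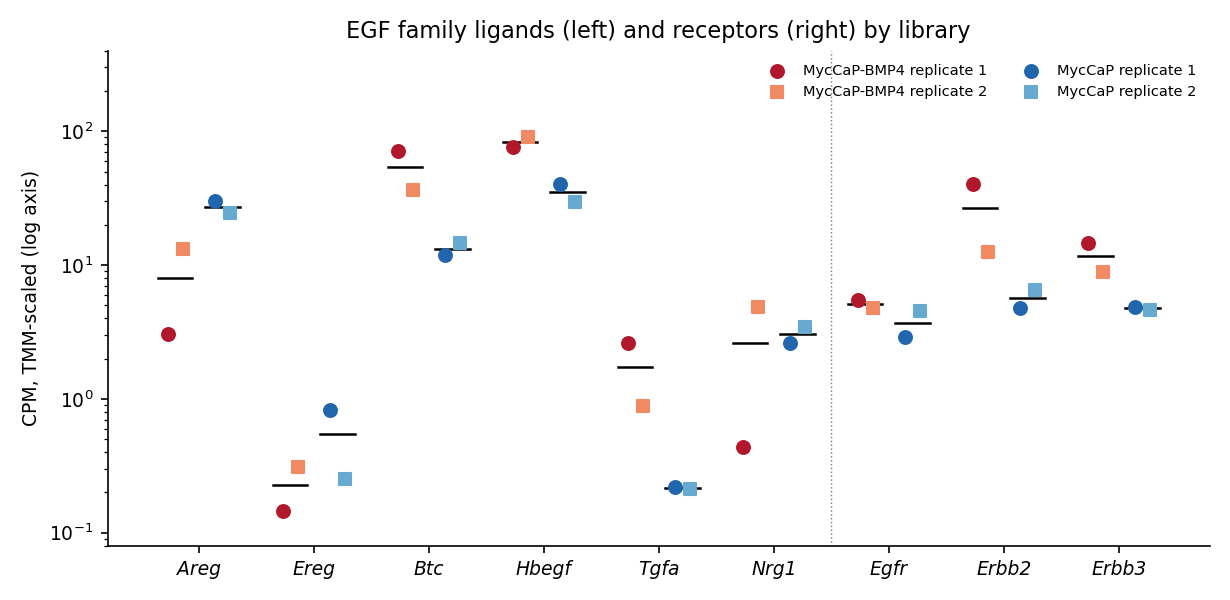
Level of 9 EGF family genes in each library, in CPM scaled with TMM factors on a log axis, with ligands left and receptors right of the dotted line. Points are libraries and black bars group means (n = 2 each). Areg is lower and Btc, Hbegf, Tgfa, Erbb2 and Erbb3 are higher in both MycCaP-BMP4 libraries. Erbb4, with no count, is not drawn.

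Areg, a ligand of EGFR made by many immune cells in tissue repair, had 3.04 and 13.1 CPM (84 and 298 counts) in MycCaP-BMP4 libraries, against 30.1 and 24.4 CPM (688 and 579 counts) in MycCaP libraries. Both MycCaP-BMP4 values lay below both MycCaP values, and replicate 1 was the lowest of all. The means were 8.07 ± 7.11 CPM in MycCaP-BMP4 and 27.3 ± 4.0 CPM in MycCaP (SD, n = 2 each), and the log2 fold change was -1.76 ± 0.68 (SE) with an edgeR adjusted p of 0.248. Without MycCaP-BMP4 replicate 1 the log2 fold change was -1.06, and without replicate 2 it was -3.13. Areg was also low beside the macrophage genes: divided by the macrophage level of each library, it stood at 0.572 and 0.647 of the MycCaP mean in MycCaP-BMP4 libraries and at 1.03 and 0.964 in MycCaP libraries. That difference did not pass: with libraries scaled on the macrophage genes, the edgeR adjusted p was 0.631, at a log2 fold change of -0.70.

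Btc, which activates EGFR and ERBB4, was the member with the smallest p. It had 71.5 and 36.6 CPM (1974 and 832 counts) in MycCaP-BMP4 libraries, against 11.99 and 14.6 CPM (274 and 346 counts) in MycCaP libraries. The groups did not overlap, and replicate 1 had the higher MycCaP-BMP4 value. The mean was 4.06-fold that of the MycCaP libraries, with a log2 fold change of 2.02 ± 0.39 (SE) and an edgeR adjusted p of 0.134. DESeq2 gave an adjusted p of 0.000555.

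Hbegf, known as an early response gene of activated macrophages and as the receptor of diphtheria toxin in human cells, was the ligand on which the MycCaP-BMP4 replicates differed least. It had 76.2 and 90.9 CPM in MycCaP-BMP4 libraries, against 40.2 and 29.7 CPM in MycCaP libraries. In contrast to Btc, the second replicate had the higher MycCaP-BMP4 value, and the groups did not overlap. The means were 83.6 ± 10.4 CPM in MycCaP-BMP4 and 34.9 ± 7.41 CPM in MycCaP (SD, n = 2 each), a difference larger than the spread within either group. The log2 fold change was 1.26 ± 0.28 (SE). EdgeR gave it an adjusted p of 0.144 and DESeq2 one of 0.0126.

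Tgfa, the EGFR ligand of many epithelia and carcinomas, was rare. It had 72 and 20 counts (2.61 and 0.879 CPM) in MycCaP-BMP4 libraries and 5 counts in each MycCaP library (0.219 and 0.211 CPM). The log2 fold change was 2.99 ± 0.86 (SE, edgeR adjusted p = 0.175), and the DESeq2 adjusted p was 0.0475. Without MycCaP-BMP4 replicate 1 the log2 fold change was 2.00, and without replicate 2 it was 3.598.

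Nrg1, the neuregulin ligand of ERBB3 and ERBB4, had no common direction. It had 0.435 and 4.83 CPM (12 and 110 counts) in MycCaP-BMP4 libraries, against 2.62 and 3.46 CPM in MycCaP libraries. The MycCaP-BMP4 group thus held both the lowest and the highest library. Its log2 fold change was -0.22 ± 1.04 (SE, edgeR adjusted p = 0.924), and it turned to 0.66 without MycCaP-BMP4 replicate 1 and was -2.77 without replicate 2. An opposite-strand gene, Gm26578, shares 4.66% of the exon bases of Nrg1, and the strand setting of the counting is not given in the sources used here. Ereg, a ligand close to Areg in sequence and position, had 4 and 7 counts in MycCaP-BMP4 libraries against 19 and 6 in MycCaP libraries. It was too rare to be tested, and its groups overlapped.

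Erbb2, the receptor without a known ligand, had 40.6 and 12.6 CPM (1121 and 287 counts) in MycCaP-BMP4 libraries, against 4.81 and 6.46 CPM (110 and 153 counts) in MycCaP libraries. The MycCaP-BMP4 replicates stood apart, at 7.20-fold and 2.24-fold of the MycCaP mean. On the log2 scale the difference was 2.24 ± 0.60 (SE). EdgeR gave it an adjusted p of 0.162 and DESeq2 one of 0.00419. The log2 fold change was 1.16 without MycCaP-BMP4 replicate 1 and 2.87 without replicate 2.

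Erbb3, a receptor with an impaired kinase that signals through its partner, had 14.7 and 8.87 CPM in MycCaP-BMP4 libraries, against 4.86 and 4.64 CPM in MycCaP libraries. As for Erbb2, replicate 1 had the higher MycCaP-BMP4 value, with smaller folds of 3.09 and 1.87 over the MycCaP mean. The fitted log2 difference was 1.31 ± 0.42 (SE). Its adjusted p was 0.2 in edgeR and 0.0674 in DESeq2. Egfr, the receptor for most of these ligands, had 5.47 and 4.79 CPM in MycCaP-BMP4 libraries, against 2.89 and 4.56 CPM in MycCaP libraries. The second replicates were close, at 109 and 108 counts, and the log2 fold change of 0.46 ± 0.48 (SE, edgeR adjusted p = 0.617) was within its error. Erbb4 had 0 counts in all 4 libraries, which allows up to 0.120 to 0.130 CPM in a library.

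Markers of tumour epithelium and of other cells differed along with these values. The 14 tumour epithelial markers summed to 507 and 195 CPM in MycCaP-BMP4 libraries against 87.6 and 90.98 CPM in MycCaP libraries, or 568% and 218% of the MycCaP mean. Of the 14, 6 lay higher and 1 lower in both MycCaP-BMP4 libraries, and Esrp1 had no count in any library. The most abundant, the claudin gene Cldn3, had 359 and 126 CPM against 25.8 and 27.6 CPM. The next, Krt7, overlapped, at 44.7 and 16.2 CPM against 29.3 and 28.8 CPM. Erbb2, Erbb3, Egfr, Btc and Tgfa, like the epithelial sum, had replicate 1 above replicate 2 in the MycCaP-BMP4 group, and Hbegf did not. Cldn3 made up most of the sum, and the list's median did not share that order: set against MycCaP, the median log2 difference over its genes was 0.70 for MycCaP-BMP4 replicate 1 and 0.81 for replicate 2. The part of epithelial RNA in these values was not tested. Mast cell and basophil markers, with 12 genes, summed to 40.8 and 67.2 CPM in MycCaP-BMP4 libraries against 11.5 and 28.7 CPM in MycCaP libraries, and Prss34 had no count. T and NK cell markers, also 12, summed to 18.3 and 49.5 CPM against 87.2 and 86.4 CPM, and the 10 dendritic cell markers to 25.3 and 58.5 CPM against 84.4 and 104 CPM, both lowest in MycCaP-BMP4 replicate 1, as was Areg. Fibroblast markers overlapped, at 500.3 and 424 CPM against 263 and 634 CPM. The glial sum was 18.97 and 25.6 CPM against 38.2 and 49.9 CPM, with Sox10, Gfra3, Cdh19 and Foxd3 without a count. The part of these cell types in the results was not tested either.

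**Figure D2:**
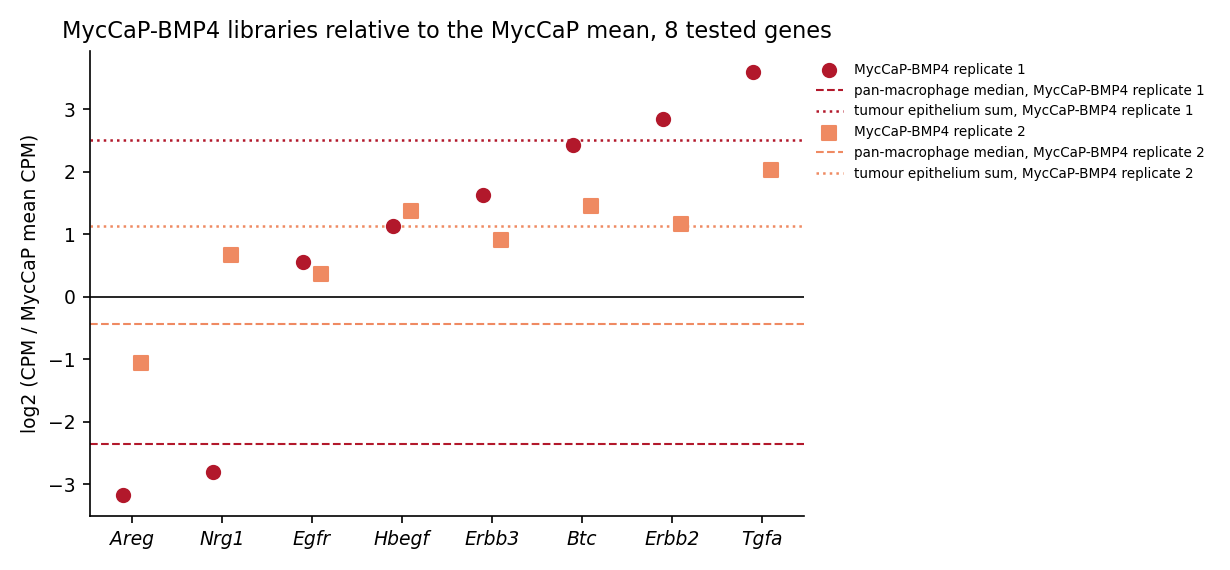
The log2 ratio of each MycCaP-BMP4 library to the MycCaP mean for the 8 tested members (points), beside the median of the pan-macrophage genes (dashed lines) and the sum of the tumour epithelial markers (dotted lines) in the same library. Areg lies below the macrophage line of its own library in both replicates, whereas Hbegf, Btc, Erbb2, Erbb3, Egfr and Tgfa lie above 0 in both.

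Scaling the libraries on the macrophage genes in place of all genes asked whether the members kept their place beside those genes. It moved the median log2 fold change of all tested genes to 1.65, against -0.03 with TMM factors. On this scale 1159 of 14075 genes passed edgeR's test, 1136 of them higher and 23 lower. Among the higher were Tgfa, Btc and Erbb2. Their log2 fold changes were 5.03, 3.97 and 4.31, with edgeR adjusted p of 0.0125, 0.024 and 0.0173. As stated above, Tgfa passed the filter on low counts only through the MycCaP-BMP4 libraries. Hbegf, at 2.90, Erbb3, at 3.21, and Egfr, at 2.19, also lay above the median of all genes and did not pass. Areg kept its negative sign at -0.70 but did not pass (edgeR adjusted p = 0.631), and Nrg1 turned positive at 0.54, below the median of all genes. Per unit of macrophage level, Hbegf stood at 11.2 and 3.51 times the MycCaP mean in MycCaP-BMP4 libraries, and Btc at 27.6 and 3.71 times.

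Shares of the summed ligand level do not depend on the scaling between libraries. Counts were divided by the exon length of each gene, and each ligand was given as a share of the sum over the 6 ligands of its library. Areg made up 7.24% and 28.1% of the ligand level in MycCaP-BMP4 libraries, against 68.4% and 67.3% in MycCaP libraries. Its rank among the 6 was 3 and 2 in MycCaP-BMP4 libraries and 1 in both MycCaP libraries. That first rank rested on the division by exon length. As shares of undivided ligand counts, Hbegf was the largest in each library, at 49.5% and 62.0% in MycCaP-BMP4 and 46.7% and 40.8% in MycCaP libraries. Areg then had 35.0% and 33.6% in MycCaP libraries. Btc made up 45.8% and 21.1% in MycCaP-BMP4 libraries, against 7.32% and 10.8% in MycCaP libraries. The Hbegf share was 45.6% and 49.1% in MycCaP-BMP4 libraries, against 22.9% and 20.5% in MycCaP libraries. The difference of the mean shares was -50.1 percentage points for Areg, 25.6 for Hbegf and 24.4 for Btc. The Btc difference was 12.02 without MycCaP-BMP4 replicate 1 and 36.7 without replicate 2. The groups did not overlap for these 3 ligands, and a two-sided exact permutation test of each share gave p = 0.333, the smallest that 2 libraries against 2 allow. Ereg, Tgfa and Nrg1 each stayed under 1.3% of the sum in each library.

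**Figure D3:**
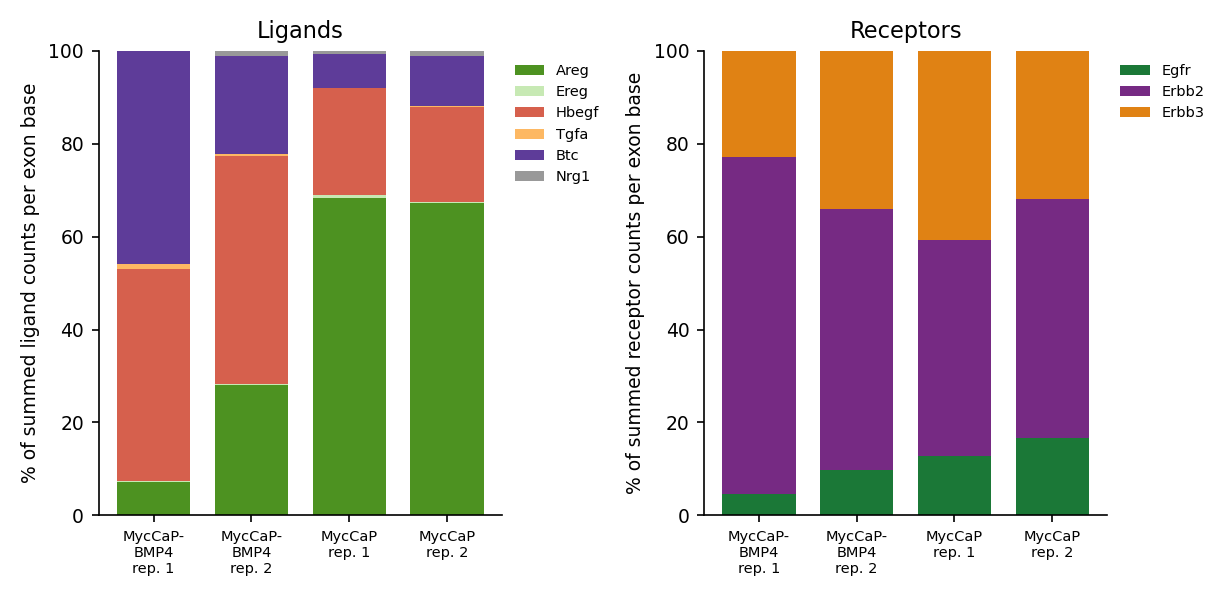
Share of each ligand (left) and receptor (right) in the summed counts per exon base of its set, in percent, for each library. Areg takes 7.24% and 28.1% of the ligand bars in MycCaP-BMP4 libraries and 68.4% and 67.3% in MycCaP libraries, and Erbb2 takes the most of every receptor bar.

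Among the receptors the order was the same in all 4 libraries, with Erbb2 ahead of Erbb3 and Erbb3 ahead of Egfr. Erbb2 made up 72.7% and 56.1% of the receptor level per exon base in MycCaP-BMP4 libraries, against 46.5% and 51.4% in MycCaP libraries. Egfr made up 4.50% and 9.79% in MycCaP-BMP4 libraries, against 12.8% and 16.7% in MycCaP libraries. The level of Erbb2 per exon base was 16.1 and 5.72 times that of Egfr in MycCaP-BMP4 libraries and 3.62 and 3.08 times in MycCaP libraries. The level of Erbb2 was 3.19 and 1.64 times that of Erbb3 in MycCaP-BMP4 libraries and 1.14 and 1.61 times in MycCaP libraries, and the replicates numbered 2 were close.

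Ordered by mean CPM per kilobase of exon, the MycCaP-BMP4 libraries had Hbegf first (17.3), then Btc (11.9), Areg (6.64), Erbb2 (5.11), Erbb3 (1.96), Egfr (0.453), Tgfa (0.269), Nrg1 (0.254) and Ereg (0.0548). Neighbours in that order from Hbegf down to Erbb3, and from Tgfa down to Ereg, overlapped between the libraries. Within each MycCaP-BMP4 library Erbb2 still exceeded Erbb3. Nrg1 exceeded Ereg in each as well, at 0.042 and 0.467 against 0.035 and 0.074 CPM per kilobase. The other overlapping neighbours changed order between the libraries. The MycCaP libraries had Areg first (22.4), then Hbegf (7.22), Btc (2.94), Erbb2 (1.08), Erbb3 (0.79), Egfr (0.329), Nrg1 (0.294), Ereg (0.131) and Tgfa (0.0331). Of the neighbours in that group, only Egfr and Nrg1 overlapped. The level of Btc was 6.32 and 0.75 times that of Areg per exon base in MycCaP-BMP4 libraries, and 0.107 and 0.161 times in MycCaP libraries. The groups did not overlap, and Btc exceeded Areg in MycCaP-BMP4 replicate 1 alone.

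The cluster on chromosome 5 holds Epgn, Ereg, Areg and Btc, whose lower coordinates lie at -112.1, -65.0, 0 and 217.7 kilobases from that of Areg. Epgn (epigen), an EGFR ligand of epithelia, had 7 and 3 counts in MycCaP-BMP4 libraries and 1 and 0 in MycCaP libraries. Areg starts at 91139599 and ends at 91148432 on the plus strand, and Btc lies at 91357261 to 91402994 on the minus strand of GRCm38. Between Areg and Btc the files list 1 gene, the small nuclear RNA Gm23092, with 1 count in all. On the far side of Epgn lies Mthfd2l, a mitochondrial folate enzyme gene that is no member of the family. It had 16.6 and 10.8 CPM in MycCaP-BMP4 libraries against 4.07 and 4.81 CPM in MycCaP libraries, with a log2 fold change of 1.62. Both ends of the stretch were thus higher and Areg lower in both MycCaP-BMP4 libraries.

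**Figure D4:**
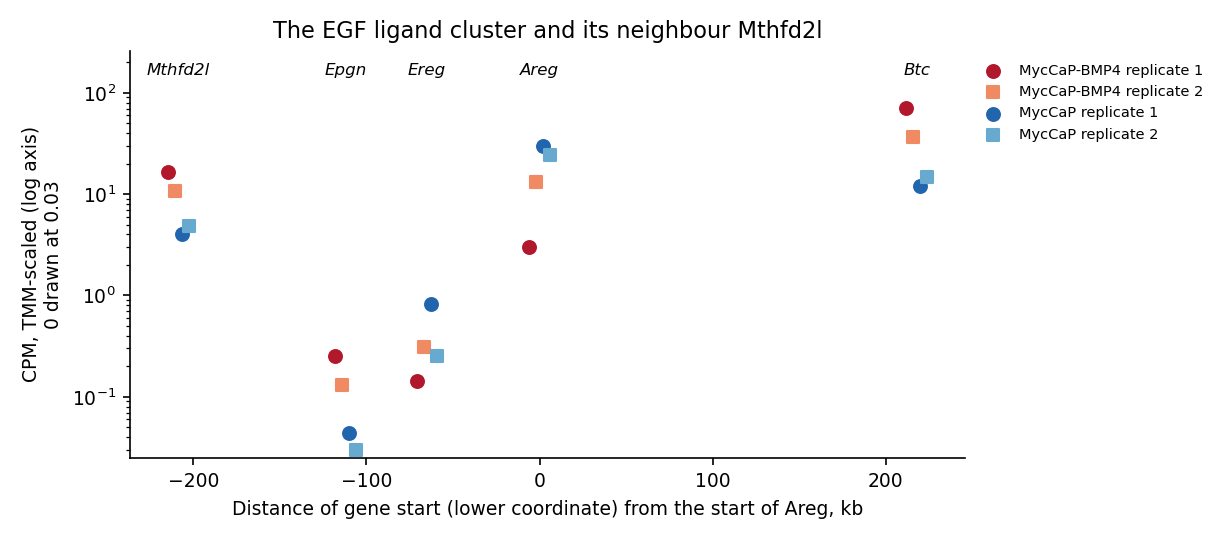
CPM, on a log axis, of the genes of the EGF ligand cluster and of Mthfd2l in each library, by the distance in kilobases of their lower coordinate from that of Areg. Btc and Mthfd2l are higher and Areg is lower in both MycCaP-BMP4 libraries (red and orange), while Epgn and Ereg stay under 1 CPM.

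Genes with the profile most like that of a member were found by the Euclidean distance between log2 CPM values, centred on their mean, over the 4 libraries. Nearest to Areg were Il15, which encodes a cytokine of T and NK cells, at a distance of 0.0897 log2 units, Pla2g7 at 0.099 and the DNA repair gene Mgmt at 0.123. Nearest to Btc were Mterf2 at 0.0394, Plpp6 at 0.0395 and Gstm2 at 0.0732. Erbb2 was nearest to Lpin3 at 0.0919, Usp44 at 0.0969 and Lrfn4 at 0.148. Erbb3 was nearest to Cfl2 at 0.0666, Tnfrsf12a at 0.0696 and Sqle at 0.0798. The nearest gene was farther for Hbegf, with Spag1 at 0.184, and for Nrg1, with Sbk2 at 0.223. For Tgfa it was Atp8b3 at 0.0837. With 4 libraries and 14075 genes such short distances are a description of these libraries.

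The other genes of the pathway gave the family its context. Of 62 listed genes outside the 10 members, 58 were tested, and edgeR called none. Of the 58, 19 lay higher and 18 lower in both MycCaP-BMP4 libraries, beside 28.9% and 29.7% of all tested genes. Their median log2 fold change was -0.27, against 1.28 for the 8 tested members and -0.03 for all tested genes. The sign of the pathway median rested on 1 library: it was 0.048 without MycCaP-BMP4 replicate 1, and it was 1.32 with the macrophage scaling, where the median of all genes was 1.65. At an unadjusted p under 0.05, 10 of the 58 were higher and 3 lower, beside 12.3% and 6.76% of all tested genes. DESeq2 called 9 higher and 2 lower, beside 6.83% and 3.01%. Among other ligands, Nrg2, a neuregulin, had 0 and 9 counts in MycCaP-BMP4 libraries against 70 and 49 in MycCaP libraries. It passed the filter on low counts only through the MycCaP libraries, so that it had to be lower in MycCaP-BMP4, and its adjusted p was 0.226 in edgeR and 0.0232 in DESeq2. Nrg4, which passed the filter only through the MycCaP-BMP4 libraries, had 16 and 33 counts against 6 and 8, Egf had 17 and 10 against 7 and 20, and Nrg3 had none.

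Proteins that release the ligands mostly overlapped between the groups, with 2 of 11 tested genes higher and 2 lower in both MycCaP-BMP4 libraries, beside 28.9% and 29.7% of all tested genes. Rhbdf1, an inactive rhomboid that carries the protease ADAM17 to the cell surface, had 81.8 and 36.9 CPM in MycCaP-BMP4 libraries against 12.9 and 18.5 CPM in MycCaP libraries. Its adjusted p was 0.148 by edgeR and 0.00321 by DESeq2. Adam10, the main protease for the Btc precursor in mouse cells, had 871 and 541 CPM against 265 and 319 CPM, with an adjusted p of 0.195 by edgeR and 0.0203 by DESeq2. Adam19 had 15.3 and 57.8 CPM in MycCaP-BMP4 libraries against 80.1 and 107 CPM in MycCaP libraries, and Frmd8, an iRhom partner, had 27.05 and 53.2 CPM against 79.0 and 57.8 CPM. Neither of the lower genes passed edgeR's or DESeq2's test over all 4 libraries. The log2 fold changes of Adam19 and Frmd8 were -2.59 and -1.31 without MycCaP-BMP4 replicate 2, and -0.70 and -0.37 without replicate 1.

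Of 13 tested adaptors and ubiquitin ligases, 4 lay higher and 5 lower in both MycCaP-BMP4 libraries, shares near the 28.9% and 29.7% of all tested genes. The related ubiquitin ligase genes Cblb and Cbl stood on opposite sides. Cblb had 65.97 and 57.99 CPM in MycCaP-BMP4 libraries against 27.6 and 31.8 CPM in MycCaP libraries, and Cbl had 9.52 and 20.03 CPM against 39.1 and 50.3 CPM. Their log2 fold changes were 1.06 ± 0.25 and -1.60 ± 0.42 (SE), with edgeR adjusted p of 0.147 and 0.156. DESeq2 called both, with adjusted p of 0.039 and 0.0142. The adaptor gene Grb7, which passed the filter only through the MycCaP libraries, had 8 and 0 counts in MycCaP-BMP4 libraries against 29 in each MycCaP library, and Sos1, a RAS exchange factor gene, had 49.8 and 45.7 CPM against 29.7 and 37.4 CPM.

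Feedback inhibitors had 6 of 16 tested genes higher and 5 lower in both MycCaP-BMP4 libraries, again near the 28.9% and 29.7% of all tested genes. Socs5, a suppressor of cytokine and EGFR signalling, had 52.3 and 38.3 CPM in MycCaP-BMP4 libraries against 12.3 and 15.03 CPM in MycCaP libraries (edgeR adjusted p = 0.122). The ERK phosphatase gene Dusp4 had 61.9 and 34.5 CPM against 19.3 and 16.5 CPM, and Spred3 had 4.60 and 2.55 CPM against 0.70 and 0.887 CPM. DESeq2 called these 3. Lrig3, which also passed the filter only through the MycCaP libraries, had 2 and 3 counts in MycCaP-BMP4 libraries against 11 and 12 in MycCaP libraries.

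Genes that respond to ERK signalling had 6 of 15 tested higher and 5 lower in both MycCaP-BMP4 libraries, beside 28.9% and 29.7% of all tested genes. Fosl1, an AP-1 subunit gene induced by sustained ERK activity, had 79.3 and 41.1 CPM in MycCaP-BMP4 libraries against 4.99 and 4.31 CPM in MycCaP libraries. The fitted log2 difference was 3.69 ± 0.42 (SE). EdgeR gave an adjusted p of 0.0891 and DESeq2 one of 1.78e-12. Myc had 408 and 163 CPM in MycCaP-BMP4 libraries against 59.5 and 87.9 CPM in MycCaP libraries, and reads of the human MYC transgene of the tumour cells could not be told apart from those of the mouse gene here. The ETS factor gene Etv4 had 10.5 and 2.64 CPM against 0.612 and 1.65 CPM. The immediate early gene Ier2 was lower, at 199 and 320 CPM in MycCaP-BMP4 libraries against 531 and 394 CPM in MycCaP libraries. It passed neither edgeR's nor DESeq2's test over all 4 libraries. Its log2 fold change was -1.19 without MycCaP-BMP4 replicate 2 and -0.53 without replicate 1. The epithelial sum given above also had its highest value in MycCaP-BMP4 replicate 1, as had Fosl1, Myc and Etv4, and its part was not tested.

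**Figure D5:**
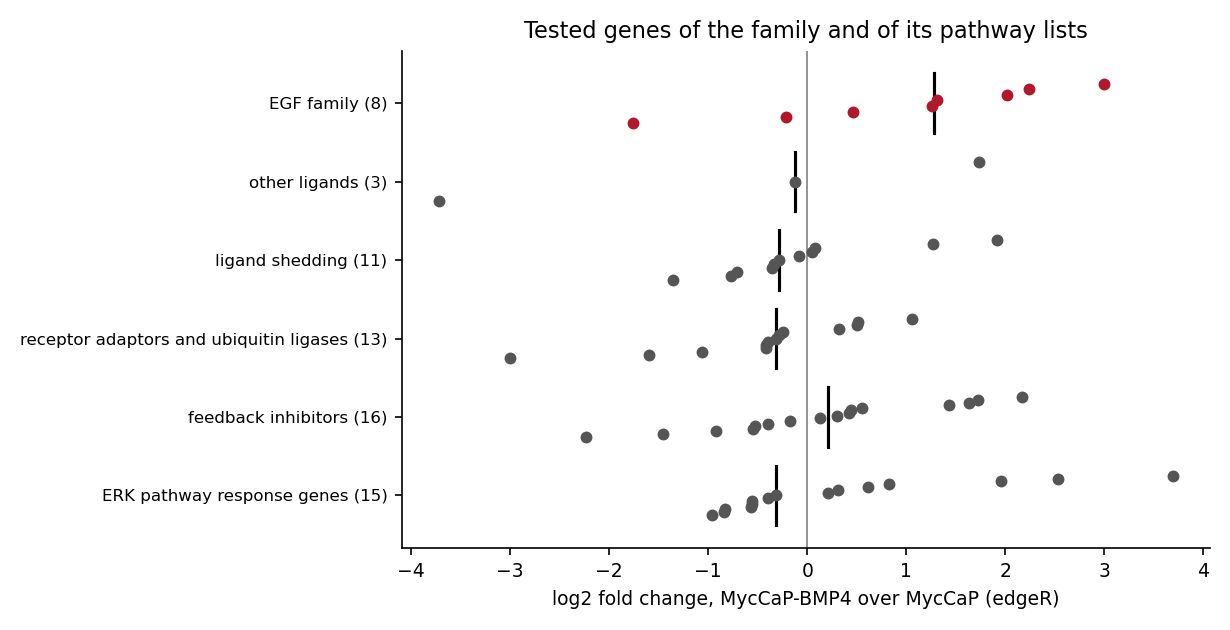
Log2 fold change (MycCaP-BMP4 over MycCaP, edgeR) of each tested gene in the EGF family (red) and in the 5 lists of other pathway genes (grey), with list medians as black bars and the number tested in brackets. The family runs from -1.76 (Areg) to 2.99 (Tgfa), with 6 of 8 genes above 0, and each of the other lists has genes on both sides of 0.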

How the data were processed

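Polyadenylated RNA was selected, directional libraries were made and read in pairs on a NextSeq, per the labels' protocols. The authors deposited raw counts for each Ensembl gene identifier. Their processing notes, as the submitters gave them, name HTSeq, RSEM, STAR 2.6.0b, Bowtie2 2.2.3 and the mm10 (GRCm38) build. What each tool did, the annotation and the strand setting were not given in the sources used here. Lines that name no gene (14.6% to 19.4% of a library) were left out. Symbols were found for 37607 of 39179 identifiers, and positions and exon lengths came from GENCODE M21 (GRCm38).

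Counts were filtered with filterByExpr (14075 genes), scaled with TMM factors and tested with edgeR 4.0.16 (quasi-likelihood F test, two-sided, no covariate, Benjamini-Hochberg adjusted p under 0.05), MycCaP-BMP4 over MycCaP. SEs are the fold change divided by the root of F. CPM use TMM factors. DESeq2 1.42.0, limma-voom (limma 3.58.1) and the other alternatives are in the closing section. The test was checked on simulated data. Replicates differed beyond sampling noise (chi-square over its degrees of freedom 279 in the MycCaP-BMP4 pair and 43.2 in the MycCaP pair). The members and lists were chosen with earlier results of these data known. Named genes are all members, up to 4 genes per pathway list with the smallest p, the 2 most abundant genes of a marker list, Bmp4, and the 3 nearest profiles of a member. Some genes under this rule are not reported here. Mthfd2l and Gm23092, neighbours of the ligand cluster, were added after their values were seen.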

Additional observations from a re-analysis of the deposited data

How the results depend on the processing

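The count of EGF family genes called was 0 in the edgeR test, as with DESeq2's size factors, library size alone, the replicate block, limma-voom and a stricter filter (1 CPM in at least 2 libraries). It was 3 scaled on the pan-macrophage genes, 3 with no filter on low counts, 4 with DESeq2's test and 0 to 7 with each library left out, where the spread came from 1 pair alone. Pathway genes called were 0, and 1 with library size alone, 7 scaled on the pan-macrophage genes, 6 with no filter, 11 with DESeq2's test and 0 to 36 with a library left out. All genes called were 0, and 65 with library size alone, 1159 with the macrophage scaling, 1109 with no filter, 2 with the replicate block, 1385 with DESeq2's test and 0 to 5753 with a library left out. Without MycCaP-BMP4 replicate 1 the log2 fold changes of Btc, Hbegf and Areg were 1.46, 1.38 and -1.06. Without MycCaP-BMP4 replicate 2 they were 2.45, 1.15 and -3.13.

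The deviations of same-numbered libraries from their group means were weakly related (r = -0.127 across 14075 genes), which gives no ground to pair them, and whether a number marks a batch or day is not known. The crossed pairing, added after seeing the data, gave 689 calls over all genes, 2 in the family and 4 in the pathway lists.

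Of the fold changes under an alternative, 10 turned sign, 74 came to pass the threshold and 263 did neither. The macrophage scaling moved the median of all genes to 1.65, so the 4 that turned under it stayed below that median. These were Nrg1 (0.54 with the macrophage scaling and -2.77 to 0.66 with a library left out), Frmd8 and Ier2 with the macrophage scaling (0.64 and 0.67), and Egf, whose value was near 0 (0.045 with library size alone, 1.61 with the macrophage scaling, 0.0038 with the replicate block, 0.025 with limma-voom, and -0.68 to 0.77 with a library left out, among them 0.77 without MycCaP replicate 2 and 0.12 without MycCaP-BMP4 replicate 2). With no division by exon length, a choice made after seeing the data, the Areg share of ligand counts differed by -28.9 percentage points and that of Hbegf by 11.98, since the Areg exons are the shortest of the 6. The cause of the other changes was not tested. Ereg and Epgn were at or near the floor, where depth limits any comparison.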

Other observations

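Genes of bone and cartilage cells, listed among the markers of other cell types, lay higher in both MycCaP-BMP4 libraries for 7 of 11 and lower for none, beside 28.9% and 29.7% of all genes tested. The 11 were counted with no filter on low counts, whereas those shares cover only genes that passed it. The cartilage and bone progenitor factor Sox9 had 128 and 65.5 CPM in MycCaP-BMP4 libraries against 11.2 and 19.3 CPM in MycCaP libraries, while Spp1 (osteopontin), which macrophages also express, had 786 and 584 CPM against 611 and 643 CPM. Of 10 B and plasma cell genes, counted in the same way, 1 lay higher and 7 lower in both MycCaP-BMP4 libraries, beside the same shares. They summed to 91.1 and 135.6 CPM in MycCaP-BMP4 libraries against 135.0 and 177.6 CPM in MycCaP libraries. Among them, Ighm had 33.2 and 68.1 CPM against 99.05 and 131 CPM, and Ighg1 had 48.5 and 52.3 CPM against 7.35 and 15.1 CPM. The mast cell tryptase gene Tpsab1 had 12.1 and 20.3 CPM against 1.01 and 6.92 CPM.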
